A study of Mus musculus with 4 samples.

Results

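The NRF2, glutathione and thioredoxin genes are 39 genes of antioxidant and detoxifying defence, chosen by name from the 52636 gene lines of a mouse count table and matched by Ensembl ID and symbol. They comprise the transcription factor gene Nfe2l2 with its regulators and partners, the enzymes of glutathione synthesis and reduction, the thioredoxin system, peroxiredoxins, glutathione peroxidases, catalase, superoxide dismutases, glutaredoxins and glutathione transferases. RNA came from mouse Hoxb8 cells, a line named for a homeobox gene with which myeloid progenitors are commonly immortalised. One group carried an empty vector (EV below, n = 2 libraries) and the other expressed DNMT3AR882H (R882H below, n = 2 libraries), a form of the DNA methyltransferase DNMT3A with a substitution that recurs in acute myeloid leukaemia. The sources used here do not give the vector, its promoter, the number of clones or any treatment. They also do not say whether the libraries of a group stem from separate cultures, and each p-value therefore rests on a spread between libraries that may be technical. All 39 genes were in the table, and 36 had enough counts to be tested. The other 3 were Gpx7, with no count, Gstm5 and Mgst1.

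NRF2, the product of Nfe2l2, is a transcription factor that the adaptor KEAP1 holds in the cytoplasm and marks for degradation until electrophiles or oxidants modify KEAP1. NRF2 then pairs with a small MAF protein and binds antioxidant response elements at genes for glutathione synthesis, thioredoxin reduction, quinone reduction and conjugation. Peroxiredoxins and glutathione peroxidases remove peroxides and draw their electrons from thioredoxin and glutathione, which reductases regenerate with NADPH; in myeloid cells the same systems meet oxidants made by the NADPH oxidase and myeloperoxidase.

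The libraries held 5470330 and 5605092 counts in EV and 5921985 and 5847609 in R882H, and a count of 0 allows up to 3 counts, or 0.507 to 0.548 CPM (counting error only). The QuantSeq protocol reads transcripts near their 3′ ends, so counts per 1000000 counts of a library (CPM, scaled by TMM factors) were compared between genes with no correction for length. Of 11444 genes tested with edgeR's quasi-likelihood test, 38.8% were called, that is past a Benjamini-Hochberg adjusted p of 0.05. Dnmt3a itself had counts of 264, 270, 254 and 239 (EV replicate 1, EV replicate 2, R882H replicate 1 and R882H replicate 2, the order of all counts given below; log2 difference −0.19 ± 0.15 with edgeR adjusted p = 0.334, where ± is the SE). This checks no label, because a 3′ tag of the mouse gene may lie outside the expressed construct. The groups also differed in Y-linked transcripts: Ddx3y had counts of 0, 2, 65 and 41 and Eif2s3y of 1, 0, 26 and 29. Xist, the transcript of the inactive X chromosome, had 1463, 1438, 1880 and 1509 and was not called (log2 difference 0.15 ± 0.13 with edgeR adjusted p = 0.392). The DNMT3A form and the origin of the cells cannot be told apart. Summed marker levels differed too. Markers of neutrophil granules and myeloid progenitors, mostly Ctsg, Mpo and Prtn3, summed to 1194 to 1371 CPM in EV against 2835 to 2897 in R882H, with Ltf, Camp and Ngp at 0 (2 of 8 called higher, 1 lower). Mpo had 30.4 and 34.9 CPM in the EV libraries against 1213 and 1270 in the R882H libraries, and Ctsg was also called higher. Prtn3 and Elane were not called, and Ms4a3 was called lower. Early B lineage markers, mostly Igll1, Ebf1 and Vpreb1, summed to 548 to 567 CPM in EV against 1664 to 1676 in R882H (7 of 8 were called higher). Basophil and mast cell markers, mostly Cpa3, Kit and Gata2, summed to 120.3 to 134 CPM in EV against 501 to 503 in R882H (5 of 8 higher, 1 lower, Fcer1a at 0). Gata2 was the marker called lower, with 49.0 and 51.0 CPM in the EV libraries against 31.8 and 23.2 in the R882H libraries. Macrophage and monocyte markers, mostly F13a1, Ccr2 and Cd68, summed to 127 to 135 CPM in EV against 340.0 to 388 in R882H (3 of 7 higher, 1 lower, Mrc1 at 0). These named genes were the ones called higher. Adgre1 was called lower, with 14.1 and 14.7 CPM in the EV libraries against 3.85 and 3.86 in the R882H libraries, and Csf1r was not called. Megakaryocyte markers, mostly Pf4, Ppbp and Gp9, summed to 874 to 1062 CPM in EV against 23.0 to 28.1 in R882H (1 of 7 higher, 2 lower). Pf4 alone had 1033 and 844 CPM in the EV libraries, and Pf4 and Ppbp were called lower. Itga2b was called higher (log2 difference 1.35 ± 0.38 with edgeR adjusted p = 0.00466), and Gp9 was not called. T lineage markers, here Thy1 and Lck, summed to 622 to 713 CPM in EV against 8.78 to 12.5 in R882H, with Cd3e, Cd3g, Cd4 and Cd8a at 0 (2 of 6 lower). Erythroid markers, mostly Hbb-bt, Hbb-bs and Klf1, summed to 10.9 to 14.1 CPM in EV against 8.78 to 9.87 in R882H, with Hba-a1 and Epor at 0 (of 8, 2 were tested and neither was called). Hoxb8, which names the line, had counts of 25, 44, 15 and 4 and was called lower in R882H (log2 difference −1.92 ± 0.45 with edgeR adjusted p = 0.000824). In such bulk samples fewer cells of a type and less RNA per cell cannot be told apart, and the part of these markers in the results below was not tested.

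NRF2 binds sequences with the core TGACNNNGC, and this core was searched on both strands in RefSeq promoter windows of GRCm38.p6, each running from 250 bases before to 50 after a start site. Of the 39 genes, 35 had a window, and 10 of their 47 windows (21.3%) held the core, against 12.4% of all 32851 windows. These were windows of Nfe2l2, Mafg, Mafk, Srxn1, Gclm, Txnrd1, Prdx1, Sod1, Gstm5 and Mgst1. The stretches around the 4 matches that lie upstream of a start site and outside every annotated exon are shown 5′ to 3′ on the strand of the gene, which is the plus strand in each case, with the 9 bases of the match in capitals; all 4 matches read TGACNNNGC on the opposite strand.
Gclm: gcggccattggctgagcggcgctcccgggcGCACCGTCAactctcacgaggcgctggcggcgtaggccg
Txnrd1: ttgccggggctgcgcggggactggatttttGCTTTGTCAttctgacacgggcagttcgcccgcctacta
Prdx1: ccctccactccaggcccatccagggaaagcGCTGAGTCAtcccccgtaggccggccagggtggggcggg
Sod1: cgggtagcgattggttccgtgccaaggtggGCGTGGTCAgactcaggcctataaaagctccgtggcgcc
They lie at chr3:122245393-122245461, chr10:82859084-82859152, chr4:116685436-116685504 and chr16:90220676-90220744.

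The capitals in Prdx1 are on the opposite strand TGACTCAGC, a form that contains an AP-1 site and that 0.454% of all windows held. A match describes letters in these windows and is not a measured binding site. Among tested genes with a window, 18.2% of the 1480 with TGACNNNGC were called lower in R882H and 19.8% of the 7096 without it, and 19.5% and 19.1% were called higher. Of the 8 tested genes of the list with the core, Srxn1 and Gclm were called lower and the other 6 were not called.

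The 39 genes held 0.769% and 0.756% of all counts in EV and 0.648% and 0.677% in R882H, and their summed level was 7716 and 7484 CPM in the EV libraries against 6419 and 6948 in the R882H libraries. Both R882H libraries lay below both EV libraries. With 2 libraries against 2, an exact permutation test of such a sum cannot pass 0.05, so sums are given without a test. The glutathione peroxidase gene Gpx1 alone made up 30.2% to 32.2% of the counts of the list in each library, ahead of Sod1, Prdx1, Txn1 and Prdx6. Nqo1, Mgst3, Gstp1 and Mgst2 had the lowest EV means of the tested genes, all under 7 CPM.

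Of the 36 tested genes, 4 were called higher and 11 lower in R882H, and 21 were not called. The share called, 41.7%, is near the 38.8% among all tested genes. Its lower share was 30.6% and its higher share 11.1%, against 19.4% and 19.3% of all tested genes. The median log2 difference (R882H over EV, here and below) was −0.20 over the list and 0.01 over all tested genes, and 27 of the 36 fitted values were negative. Of the 36 tested genes, 9 (25%) were called and differed at least 2-fold, against 14.1% of all tested genes. By kind of enzyme, 6 of 7 tested glutathione transferases were called, with a median absolute log2 fold change of 1.71, and 9 of the other 29 genes, with a median of 0.24, beside 0.36 over all tested genes. Of the 16 genes that averaged 100 CPM or more, 4 were called, beside 40.6% of the 1992 tested genes at that level.

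**Figure D1:**
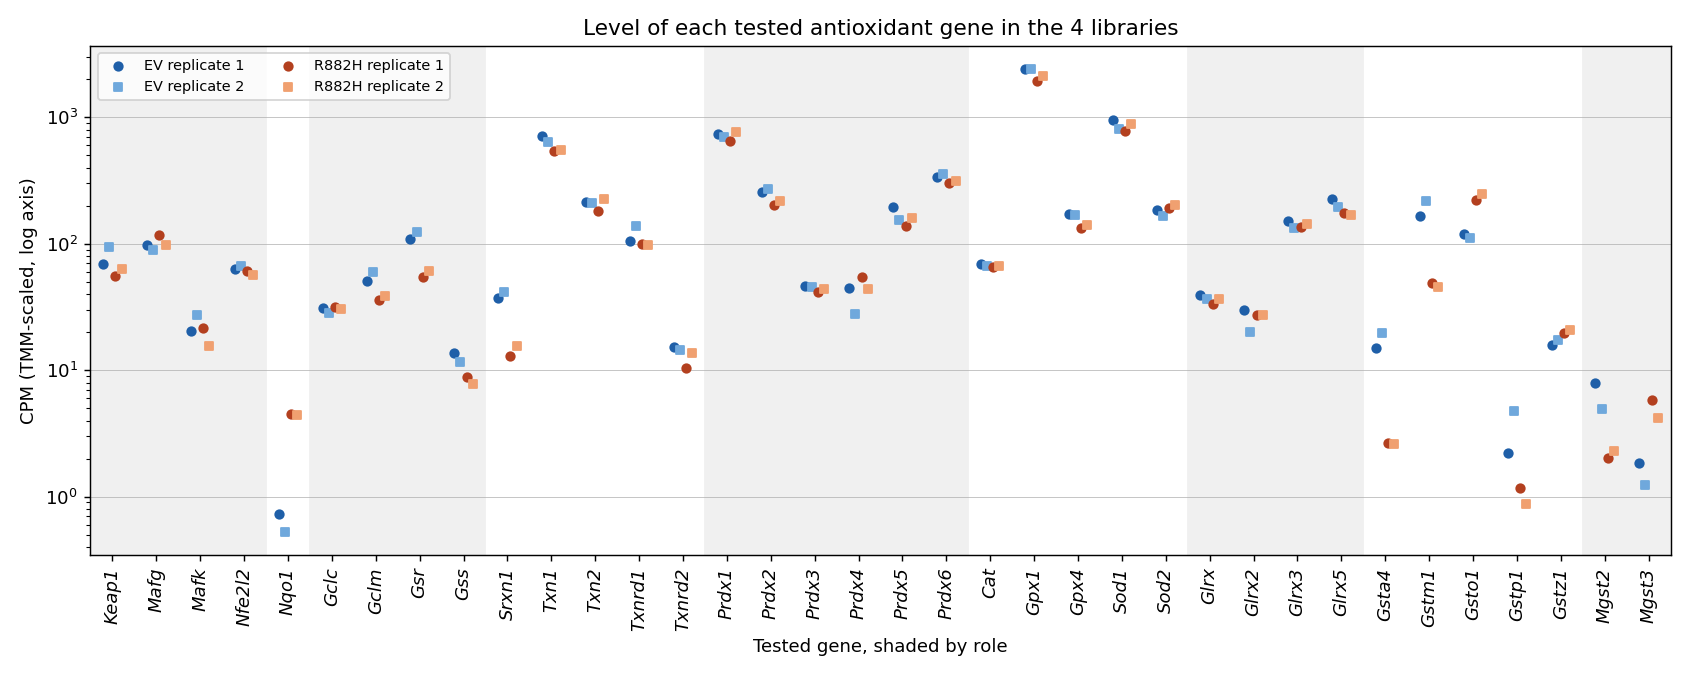
Level of the 36 tested genes in each library, in CPM on a log axis, with genes grouped by role under alternating shading. Circles are replicate 1 and squares replicate 2 of EV (blue shades) and R882H (orange-red shades); Gpx1 stands highest, at 1941 to 2410 CPM, and the groups part most for Nqo1, Gsta4 and Gstm1.

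**Figure D2:**
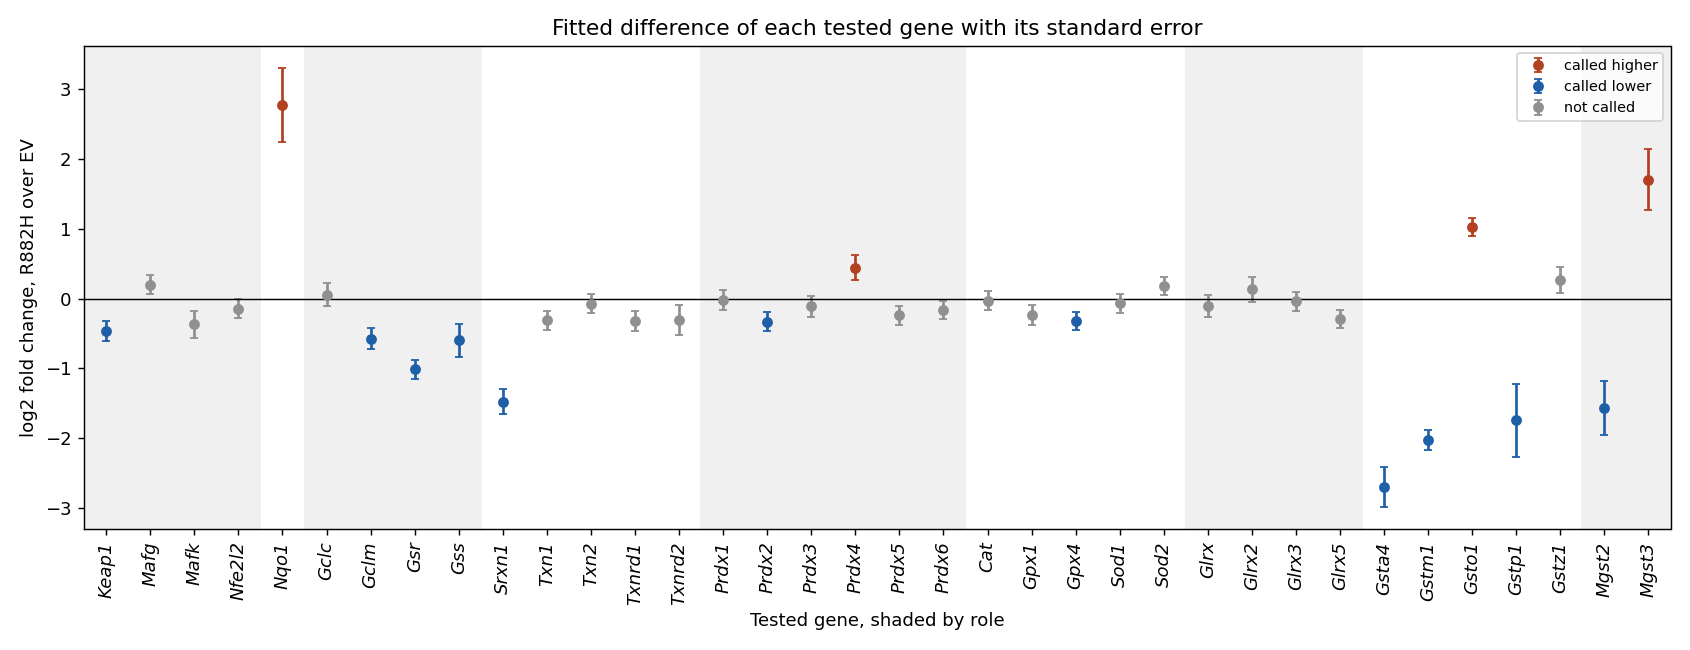
Fitted log2 difference (R882H over EV) of the 36 tested genes with its standard error from the edgeR fit over 2 libraries per group. The 4 genes called higher are orange, the 11 called lower blue and the other 21 grey; the values run from −2.70 for Gsta4 to 2.78 for Nqo1.

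Of the 4 regulators, Keap1 alone was called. Nfe2l2, which encodes NRF2 itself, had 62.9 and 67.3 CPM in the EV libraries against 60.9 and 56.9 in the R882H libraries, and was not called (log2 difference −0.14 ± 0.14 with edgeR adjusted p = 0.421). Keap1, the gene of its repressor (ENSMUSG00000003308, chromosome 9, 21229730 to 21239361), fell: it had 69.5 and 94.6 CPM in the EV libraries against 55.5 and 63.2 in the R882H libraries (log2 difference −0.47 ± 0.15 with edgeR adjusted p = 0.0103). The EV libraries were both higher, and EV replicate 2 stood well above EV replicate 1. The call was lost when EV replicate 2 was left out (−0.23, adjusted p = 0.246), without R882H replicate 1 (adjusted p = 0.169) and in DESeq2 (adjusted p = 0.0603). The small MAF genes, whose products pair with NRF2, were not called: Mafg had 98.5 and 89.8 CPM in the EV libraries against 118 and 97.6 in the R882H libraries (0.20 ± 0.13) and Mafk 20.5 and 27.4 CPM in the EV libraries against 21.6 and 15.4 in the R882H libraries (−0.37 ± 0.19), with overlapping groups in both. Exons of Mafk overlap those of Tmem184a, whose counts of 104, 141, 120 and 81 run beside the 112, 155, 129 and 88 of Mafk, and those of Mafg overlap Sirt7, so that these reads cannot be told apart. Keap1 overlaps Gm16754, which had counts of 32, 32, 17 and 21.

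Nqo1, the quinone reductase that is widely used as a readout of NRF2 activity (ENSMUSG00000003849, chromosome 8, 107388225 to 107403206), was higher in R882H, but from very few transcripts. Its counts were 4, 3, 27 and 25, or 0.734 and 0.530 CPM in the EV libraries against 4.52 and 4.39 in the R882H libraries. The groups did not overlap (log2 difference 2.78 ± 0.53 with edgeR adjusted p = 6.97e-05), and the call held under all 12 alternative settings, with log2 differences of 2.56 to 3.02. The standard error of a gene with so few EV counts can fall below its counting error. Its paralogue Nqo2, which was named after its values were seen, had 31.8 ± 0.666 CPM in EV against 33.8 ± 0.175 in R882H (± SD, n = 2, as for all means below) and was not called (log2 difference 0.084 ± 0.16 with edgeR adjusted p = 0.717).

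For the genes of glutathione synthesis and reduction, the summed level was 205 and 224 CPM in the EV libraries against 131 and 137 in the R882H libraries, and 3 of the 4 fell, against 19.4% of all tested genes. Gsr, the glutathione reductase that returns oxidised glutathione to its thiol form (ENSMUSG00000031584, chromosome 8, 33652523 to 33698163), had 109.8 and 123 CPM in the EV libraries against 54.9 and 60.6 in the R882H libraries. Both R882H libraries lay well below both EV libraries, and the fitted level was 2.02-fold lower (log2 difference −1.02 ± 0.14 with edgeR adjusted p = 2.09e-07). The call held under all 12 alternatives. Glutamate-cysteine ligase, the rate-limiting enzyme, has a catalytic and a modifier subunit, and the genes of these differed in outcome. The modifier gene Gclm (ENSMUSG00000028124, chromosome 3, 122245557 to 122270732) had 50.6 and 60.2 CPM in the EV libraries against 36.0 and 38.4 in the R882H libraries and fell (log2 difference −0.58 ± 0.15 with edgeR adjusted p = 0.00258). The catalytic gene Gclc had 31.2 and 28.6 CPM in the EV libraries against 31.6 and 30.5 in the R882H libraries, with overlapping groups, and was not called (log2 difference 0.057 ± 0.17 with edgeR adjusted p = 0.812); whether the difference between these genes exceeds the error was not tested. Gss, the synthetase of the last step, had 13.6 and 11.6 CPM in the EV libraries against 8.87 and 7.72 in the R882H libraries and just passed the threshold (log2 difference −0.60 ± 0.24 with edgeR adjusted p = 0.0464). The Gss call ended in 7 of its 11 alternatives, each left-out library among them (adjusted p between 0.0600 and 0.240 without 1 library), and that of Gclm without R882H replicate 1 (adjusted p = 0.0504). Exons of Gclm overlap Gm17494 (counts of 91, 58, 47 and 101) and those of Gss overlap Acss2 (25, 39, 26 and 11).

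In the thioredoxin system only Srxn1 was called. Srxn1, the sulfiredoxin that repairs overoxidised peroxiredoxins and a well-known NRF2 target (ENSMUSG00000032802, chromosome 2, 152105516 to 152111376), had 37.0 and 41.8 CPM in the EV libraries against 12.9 and 15.4 in the R882H libraries. The groups were far apart (log2 difference −1.48 ± 0.18 with edgeR adjusted p = 3.07e-08), and all 12 alternatives kept the call, between −1.60 and −1.34. Txn1, cytosolic thioredoxin and one of the most abundant transcripts of the list, had 715 and 643 CPM in the EV libraries against 543 and 550.0 in the R882H libraries and missed the threshold (log2 difference −0.31 ± 0.14 with edgeR adjusted p = 0.0664). Its reductase Txnrd1 had 105 and 139 CPM in the EV libraries against 98.9 and 97.1 in the R882H libraries (log2 difference −0.32 ± 0.14 with edgeR adjusted p = 0.0667). In both genes each R882H library lay below each EV library. Both passed in single alternatives: Txn1 with library size only (adjusted p = 0.0413) and without EV replicate 2 (−0.39, adjusted p = 0.0141), and Txnrd1 without EV replicate 1 (−0.51, adjusted p = 0.00361). The mitochondrial counterparts were not called, with 213 ± 2.33 CPM in EV against 203 ± 30.5 in R882H for Txn2 (−0.074 ± 0.13) and 14.8 ± 0.528 CPM in EV against 12.0 ± 2.35 in R882H for Txnrd2 (−0.31 ± 0.22). The summed level of these 5 genes was 1087 and 1050 CPM in the EV libraries against 846 and 901 in the R882H libraries.

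Peroxiredoxins, the abundant thiol peroxidases, were close to level. They summed to 1623 and 1548 CPM in the EV libraries against 1391 and 1543 in the R882H libraries, and R882H replicate 2 lay close to EV replicate 2. Prdx1 had 740.0 and 696 CPM in the EV libraries against 654 and 762 in the R882H libraries (log2 difference −0.021 ± 0.14 with edgeR adjusted p = 0.920) and Prdx6, a glutathione-dependent member, 337 and 354 CPM in the EV libraries against 301 and 316 in the R882H libraries (−0.16 ± 0.13). The mitochondrial genes Prdx3 (46.0 ± 0.351 CPM in EV against 42.5 ± 1.68 in R882H) and Prdx5 (176 ± 29.5 CPM in EV against 149 ± 16.3 in R882H) were not called either, with log2 fold changes of −0.11 ± 0.15 and −0.24 ± 0.14. Prdx5 passed without EV replicate 2 (−0.40, adjusted p = 0.0214), and its exons overlap Trmt112. The calls among them were small. Prdx2, cytosolic and best known from red cells, had 259 and 269.5 CPM in the EV libraries against 203 and 218 in the R882H libraries and fell (log2 difference −0.33 ± 0.13 with edgeR adjusted p = 0.0443), and Prdx4, the peroxiredoxin of the endoplasmic reticulum, had 44.6 and 27.7 CPM in the EV libraries against 54.4 and 43.7 in the R882H libraries and was called higher although the groups overlapped (log2 difference 0.44 ± 0.18 with edgeR adjusted p = 0.0479). The Prdx2 call ended in 6 of its 11 alternatives, among them DESeq2 (adjusted p = 0.0610), R882H replicate 1 left out (0.354), R882H replicate 2 left out (0.183) and EV replicate 2 left out (0.0640). Its exons overlap Junb and Rnaseh2a. The Prdx4 call ended in 8 of 12, with log2 fold changes of 0.13 without EV replicate 2 (adjusted p = 0.585), 0.29 without R882H replicate 1 (adjusted p = 0.338) and 0.82 without EV replicate 1, so its size rests on which EV library is used.

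Among the peroxide and superoxide enzymes, Gpx4 alone was called. Gpx4, the phospholipid hydroperoxide peroxidase that guards membranes against ferroptosis (ENSMUSG00000075706, chromosome 10, 80047166 to 80056439), had 172 and 169 CPM in the EV libraries against 133 and 140.4 in the R882H libraries. Both R882H libraries were lower, by a small margin (log2 difference −0.32 ± 0.13 with edgeR adjusted p = 0.0494). The call ended in 6 of 12 alternatives, among them DESeq2 (adjusted p = 0.0900) and the fits without EV replicate 1 (0.0566), R882H replicate 1 (0.350) and R882H replicate 2 (0.200). Of the 50-base words in the last 300 bases of its coding transcripts, 83.4% also occur in the pseudogene Gpx4-ps2. Gpx1, the main cytosolic glutathione peroxidase, had 2391 and 2410 CPM in the EV libraries against 1941 and 2123 in the R882H libraries; the R882H libraries were lower, but the difference was not called (log2 difference −0.24 ± 0.14 with edgeR adjusted p = 0.190). Sod1 and Sod2, the copper-zinc and the mitochondrial manganese superoxide dismutase, had 881 ± 108 CPM in EV against 839 ± 77.0 in R882H (−0.069 ± 0.14) and 175 ± 12.2 CPM in EV against 198 ± 8.17 in R882H (0.18 ± 0.13). For Sod1, 18.3% of such 50-base words also occur in Gm8566. The share was 31.8% for Prdx1, most of it in Gm21399, and 18.3% for Glrx3, in Gm12669. Cat, the heme enzyme catalase, was nearly identical in all libraries, with 69.0 and 66.9 CPM in the EV libraries against 65.8 and 67.2 in the R882H libraries (log2 difference −0.031 ± 0.13 with edgeR adjusted p = 0.876). Gpx7, a peroxidase of the endoplasmic reticulum, had no count in any library, which allows at most 3 counts in each.

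Glutaredoxins, which use glutathione to reduce mixed disulfides, held no call. Glrx had 38.0 ± 2.30 CPM in EV against 35.2 ± 2.29 in R882H, mitochondrial Glrx2 24.8 ± 6.90 CPM in EV against 27.2 ± 0.0725 in R882H, Glrx3, which carries iron-sulphur clusters in the cytosol, 143 ± 12.3 CPM in EV against 139 ± 4.23 in R882H, and Glrx5, its mitochondrial counterpart in cluster assembly, 211 ± 20.1 CPM in EV against 172 ± 2.77 in R882H. Their log2 fold changes were −0.11 ± 0.16, 0.13 ± 0.18, −0.041 ± 0.13 and −0.29 ± 0.13 in that order. Glrx5 came nearest to the threshold (edgeR adjusted p = 0.0764, DESeq2 adjusted p = 0.130), with both R882H libraries below both EV libraries, and was called when EV replicate 2 was left out (−0.39, adjusted p = 0.0183). It was also the only 1 of the 4 below 0.05 before adjustment.

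The cytosolic glutathione transferases, which conjugate glutathione to electrophiles, changed in both directions, 3 of them by 2-fold or more with a call that held throughout. Gsta4, the alpha class enzyme that removes hydroxynonenal from lipid peroxidation (ENSMUSG00000032348, chromosome 9, 78182774 to 78209349), had 15.0 and 19.6 CPM in the EV libraries against 2.68 and 2.63 in the R882H libraries. That is the largest fall among the 36 tested genes (log2 difference −2.70 ± 0.29 with edgeR adjusted p = 2.16e-09). Gstm1, the mu class gene with the most counts (ENSMUSG00000058135, chromosome 3, 108012255 to 108017973), had 166 and 219 CPM in the EV libraries against 49.0 and 45.3 in the R882H libraries and fell, with the groups far apart (log2 difference −2.03 ± 0.15 with edgeR adjusted p = 1.61e-13). Gsto1, the omega class enzyme, which acts in thiol transfer and reduction of dehydroascorbate (ENSMUSG00000025068, chromosome 19, 47854970 to 47864790), went the other way, with 120.3 and 110.5 CPM in the EV libraries against 221 and 249 in the R882H libraries (log2 difference 1.02 ± 0.13 with edgeR adjusted p = 1.38e-07). In these 3 genes the groups did not overlap and all 12 alternatives kept the call. The rise of Gsto1 and the fall of Gstm1 left the sum of the class at 321 and 373 CPM in the EV libraries against 293 and 318 in the R882H libraries. Gstp1, the pi class gene, had counts of 12, 27, 7 and 5 and was called lower (log2 difference −1.75 ± 0.52 with edgeR adjusted p = 0.00793). EV replicate 2 held more than EV replicate 1, and the call ended without EV replicate 2 (−1.09, adjusted p = 0.293), without R882H replicate 2 (adjusted p = 0.0834) and in DESeq2 (adjusted p = 0.0789). Its level is uncertain, because 76.7% of the 50-base words in its 3′ ends also occur in Gstp2, which had no count, and the pseudogene Gstp-ps had counts of 16, 30, 12 and 6. Gstz1, the zeta class isomerase of tyrosine breakdown, had 16.0 and 17.5 CPM in the EV libraries against 19.6 and 20.7 in the R882H libraries and was not called (log2 difference 0.27 ± 0.19 with edgeR adjusted p = 0.270; its exons overlap Pomt2).

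The mu class genes sit side by side on chromosome 3, from Gstm5 (start 107895821) to Gstm4 (end 108044894), and every one with counts was lower in R882H. Gstm5, the list's other mu class gene, was too low to be tested, with counts of 7, 10, 0 and 1; its ratio of normalised counts, EV over R882H, was 17.8, 95% interval 2.80 to 746. The neighbours outside the list, Gstm7, Gstm2 and Gstm4, were chosen after their values were seen. Gstm7 had counts of 9, 5, 0 and 1 (ratio 14.7, 95% interval 2.24 to 622). Gstm2 had 8, 7, 0 and 0, which is 5.25-fold lower in R882H when 3 counts are taken for that group, with no counting error on the EV counts. Gstm4 had 63, 64, 15 and 18 (log2 difference −2.01 ± 0.31 with edgeR adjusted p = 2.92e-06). Gstm6 and Gstm3 had no count in any library. Mu class genes resemble each other, and 23.0% of the 50-base words in the 3′ ends of Gstm1 also occur in another gene, most of them in Gstm3.

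**Figure D3:**
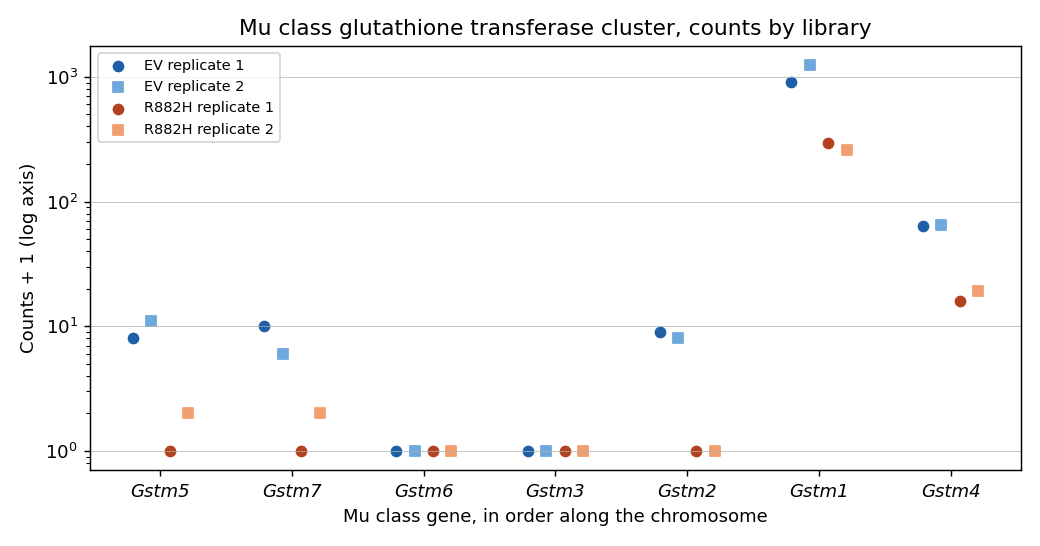
Counts plus 1 of the 7 mu class glutathione transferase genes in each library, on a log axis, in their order along the chromosome. In the 5 genes with counts both R882H libraries (orange) lie below both EV libraries (blue), and Gstm6 and Gstm3 are at 0 counts throughout.

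The microsomal transferases, membrane enzymes of a separate family that also makes lipid mediators, were all low. Mgst2 had counts of 43, 28, 12 and 13 and fell (log2 difference −1.57 ± 0.39 with edgeR adjusted p = 0.00154), whereas Mgst3 had 10, 7, 35 and 24 and rose (log2 difference 1.71 ± 0.44 with edgeR adjusted p = 0.00203). Neither pair of groups overlapped. The Mgst2 call ended without EV replicate 1 (adjusted p = 0.0599) and the Mgst3 call without R882H replicate 1 (adjusted p = 0.0658). Mgst1 had counts of 0, 0, 6 and 2 and was not tested. Its level was 2.54-fold higher in R882H when 3 counts are taken for the EV group, with no counting error on the R882H counts.

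Other genes commonly described as NRF2 targets were mostly lower in R882H. Of 39 such genes outside the list, 26 were tested, of which 18 fell (69.2%, against 19.4% of all tested genes), 3 rose (11.5%, against 19.3%) and 5 were not called. The median log2 fold change was −0.61, against 0.01 over all tested genes. Cbr3, a carbonyl reductase, fell furthest: it had 44.0 and 43.8 CPM in the EV libraries against 3.18 and 3.51 in the R882H libraries (log2 difference −3.71 ± 0.22 with edgeR adjusted p = 9.53e-16). Ftl1, the ferritin light chain, fell with −1.39 ± 0.13 and Gstm4 with −2.01 ± 0.31. Hmox1 (−2.95 ± 0.48), the cystine carrier gene Slc7a11 (−1.11 ± 0.29) and the glutathione conjugate exporters Abcc1 (−0.66 ± 0.15) and Abcc3 (−2.83 ± 0.57) also fell. So did Osgin1 (−2.12 ± 0.59) and Sqstm1 (−0.74 ± 0.14), whose product binds KEAP1. These 6 genes were picked after their values were seen. The call was lost for Abcc1 without R882H replicate 2 (adjusted p up to 0.0968) and Osgin1 in DESeq2, without EV replicate 2 and without R882H replicate 2 (adjusted p up to 0.243). The genes that rose were Nmral1, an NADPH sensor (40.9 and 35.8 CPM in the EV libraries against 89.0 and 83.6 in the R882H libraries, 1.17 ± 0.14), the exporter gene Abcc5 (1.27 ± 0.28) and the aldo-keto reductase gene Akr1c13, with counts of 2, 1, 31 and 15 (ratio R882H over EV 14.6, 95% interval 4.69 to 73.4). Without 1 library at a time the number that fell was 12 to 18 and the number that rose 3, and DESeq2 gave 13 and 3; these counts were added after the data were seen. This list was written with earlier results of these data known. It shares Sqstm1 with the list of further NRF2 regulators below, and other genes with the NADPH, glutathione supply and transferase lists below.

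**Figure D4:**
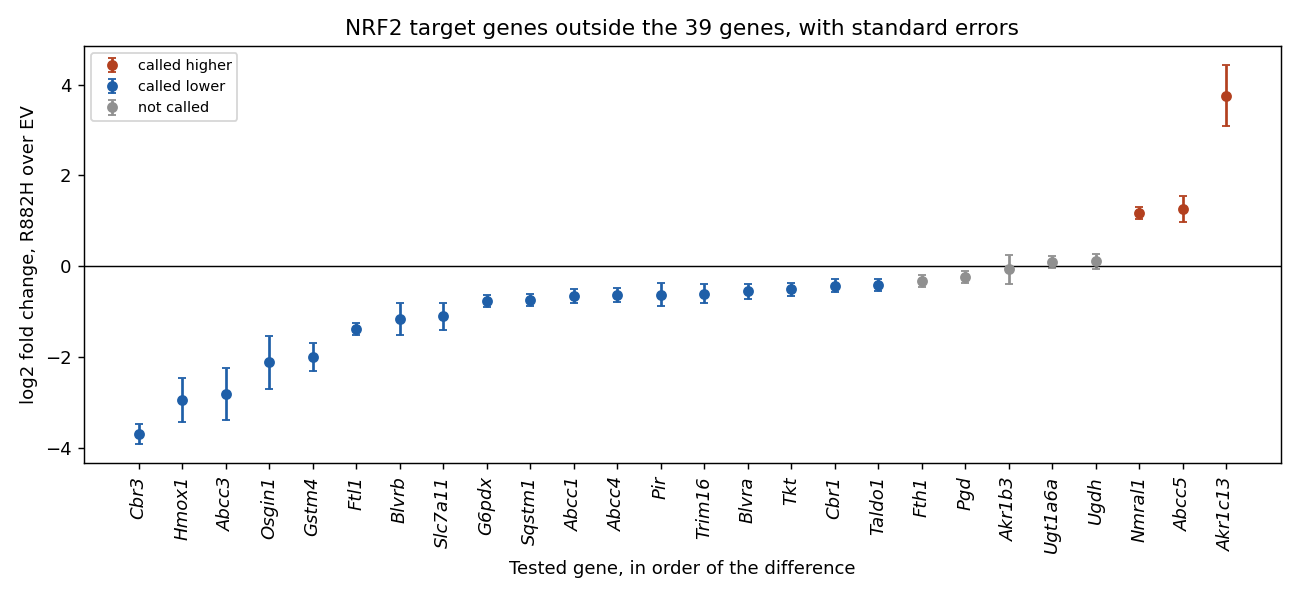
Fitted log2 difference (R882H over EV), with its standard error, of the 26 tested NRF2 target genes outside the list, in order of the difference. The 18 called lower are blue, the 3 called higher orange and the 5 not called grey, from Cbr3 at −3.71 to Akr1c13 at 3.76.

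Genes around the pathway moved as follows, each count to be read beside 19.3% called higher and 19.4% called lower among all tested genes. In the list of further NRF2 regulators, of 16 tested genes 1 rose and 6 fell: Dpp3, which binds KEAP1 (−0.77 ± 0.13), the acetyltransferase genes Crebbp (−0.82 ± 0.15) and Ep300 (−0.77 ± 0.15) and Sqstm1 fell, and Nfe2, a relative of Nfe2l2 active in blood cells, rose (0.48 ± 0.16). The call was lost for Nfe2 in DESeq2, without EV replicate 2 and without R882H replicate 1 (adjusted p up to 0.151). The competing repressor Bach1, singled out after its values were seen, had 24.8 ± 4.42 CPM in EV against 22.2 ± 0.338 in R882H and was not called (log2 difference −0.16 ± 0.18 with edgeR adjusted p = 0.508). In glutathione supply and turnover, of 19 tested genes 1 rose and 7 fell. Ggct, which cleaves gamma-glutamyl amino acids, had 35.6 and 26.3 CPM in the EV libraries against 9.54 and 8.78 in the R882H libraries (−1.75 ± 0.20), the glutathione-degrading Chac1 fell (−1.86 ± 0.45), as did Slc25a39, the mitochondrial glutathione carrier (−0.55 ± 0.13), and Adh5, which reduces S-nitrosoglutathione, rose (0.54 ± 0.13). In NADPH supply, of 16 tested genes 1 rose and 7 fell. G6pdx, the entry enzyme of the pentose phosphate pathway, had 78.3 and 85.8 CPM in the EV libraries against 44.0 and 52.5 in the R882H libraries (−0.77 ± 0.14). Mthfd2 (−0.68 ± 0.13), Me2 (−0.66 ± 0.15) and Shmt2 (−0.54 ± 0.14) fell, and Nnt, the mitochondrial transhydrogenase, rose (0.50 ± 0.14). Calls were lost for Nnt without EV replicate 1 and without R882H replicate 1 (adjusted p up to 0.101) and Shmt2 without R882H replicate 1 (adjusted p up to 0.105).

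In the list of other thiol redox proteins, of 31 tested genes 9 rose and 8 fell. A place in this list, as for the thioredoxin-like Txnl4a, does not show redox activity of the product. Txnip, the protein that binds and inhibits thioredoxin, had 54.1 and 59.5 CPM in the EV libraries against 191 and 129 in the R882H libraries and rose (log2 difference 1.498 ± 0.15, edgeR adjusted p = 1.84e-09). Ero1l, the oxidase that drives disulfide formation in the endoplasmic reticulum, had 693 and 662 CPM in the EV libraries against 236 and 209 in the R882H libraries and fell (log2 difference −1.61 ± 0.14 with edgeR adjusted p = 1.25e-11), as did Qsox1 (−1.60 ± 0.18), Pdia3 (−0.90 ± 0.13), Pdia4 (−0.84 ± 0.21), Sesn2 (−0.94 ± 0.33), Txnl4a (−0.45 ± 0.16), P4hb (−0.39 ± 0.14) and the methionine sulfoxide reductase Msrb1 (−0.40 ± 0.13). Relatives of several of these rose: the methionine sulfoxide reductases Msrb3 (2.58 ± 0.48, counts of 4, 6, 27 and 37) and Msra (0.81 ± 0.19), the oxidase Ero1lb (1.21 ± 0.38), the disulfide isomerase Pdia6 (0.47 ± 0.13) and the sestrins Sesn1 (1.07 ± 0.16) and Sesn3 (1.71 ± 0.34), besides the selenoproteins Selenow (0.74 ± 0.17) and Selenof (0.35 ± 0.13). Of these 17 genes, 8 lost their call in an alternative. These were Pdia4 without R882H replicate 2 (adjusted p up to 0.0759), Msrb1 in DESeq2 and without either R882H replicate (adjusted p up to 0.146) and Pdia6 without either R882H replicate (adjusted p up to 0.0773). The others were Ero1lb in DESeq2, without EV replicate 1 and without R882H replicate 1 (adjusted p up to 0.118), Selenof in DESeq2, without EV replicate 2 and without either R882H replicate (adjusted p up to 0.247) and Sesn2 in DESeq2 and with any 1 library left out (adjusted p up to 0.162). The list ends with Txnl4a in DESeq2, without EV replicate 1 and without either R882H replicate (adjusted p up to 0.162) and P4hb without EV replicate 2 and without either R882H replicate (adjusted p up to 0.203). In selenoprotein synthesis, which Gpx1, Gpx4 and the thioredoxin reductases need, of 10 tested genes 2 rose and 1 fell: the selenium carrier Selenop (1.84 ± 0.19) and Selenbp1 (1.32 ± 0.27) rose and the selenocysteine lyase Scly fell (−0.59 ± 0.15). The call was lost for Scly without R882H replicate 2 (adjusted p up to 0.0813). None of the 6 synthesis factors tested, Sephs1, Sephs2, Secisbp2, Eefsec, Pstk and Sepsecs, was called, with log2 differences from −0.33 ± 0.14 to 0.38 ± 0.19. Sephs1, the only 1 under an unadjusted p of 0.05, was called with DESeq2's size factors, without EV replicate 2 and without overlapping genes. DESeq2 called none of the 6. Among sources and users of superoxide, of 10 tested genes 1 rose and 2 fell. Mpo, which uses hydrogen peroxide in neutrophil granules, had 30.4 and 34.9 CPM in the EV libraries against 1213 and 1270 in the R882H libraries (5.25 ± 0.17). Cyba, the membrane subunit of the NADPH oxidase, fell (−0.88 ± 0.14), as did the xanthine dehydrogenase gene Xdh (−3.13 ± 0.55), and Cybb, the catalytic subunit of phagocytes and likewise singled out, had counts of 0, 0, 5 and 0 and was not tested. Among other glutathione transferases and relatives, of 9 tested genes 2 rose and 3 fell: Clic4 (−0.92 ± 0.13), Gstm4 and the cysteinyl leukotriene synthase Ltc4s (−1.77 ± 0.41) fell, and the theta class genes Gstt3 (0.64 ± 0.18) and Gstt2 (0.78 ± 0.29) rose. Calls were lost for Gstt3 in DESeq2, without EV replicate 1 and without R882H replicate 1 (adjusted p up to 0.0696) and Gstt2 in DESeq2, without EV replicate 1 and without R882H replicate 2 (adjusted p up to 0.262). The same held for Ltc4s without EV replicate 2 (adjusted p up to 0.0603). The Gstt2 difference ran from 0.47 to 1.18.

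Of the 15 called genes of the list, 6 kept their call in every one of the 12 alternative settings: Nqo1 and Gsto1 higher, and Srxn1, Gsr, Gstm1 and Gsta4 lower. The other 9, which were Keap1, Gclm, Gss, Prdx2, Prdx4, Gpx4, Gstp1, Mgst2 and Mgst3, lost it in at least 1, with no change of sign. Of the 21 genes not called, Txn1, Txnrd1, Prdx5 and Glrx5 gained a call in at least 1.

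**Figure D5:**
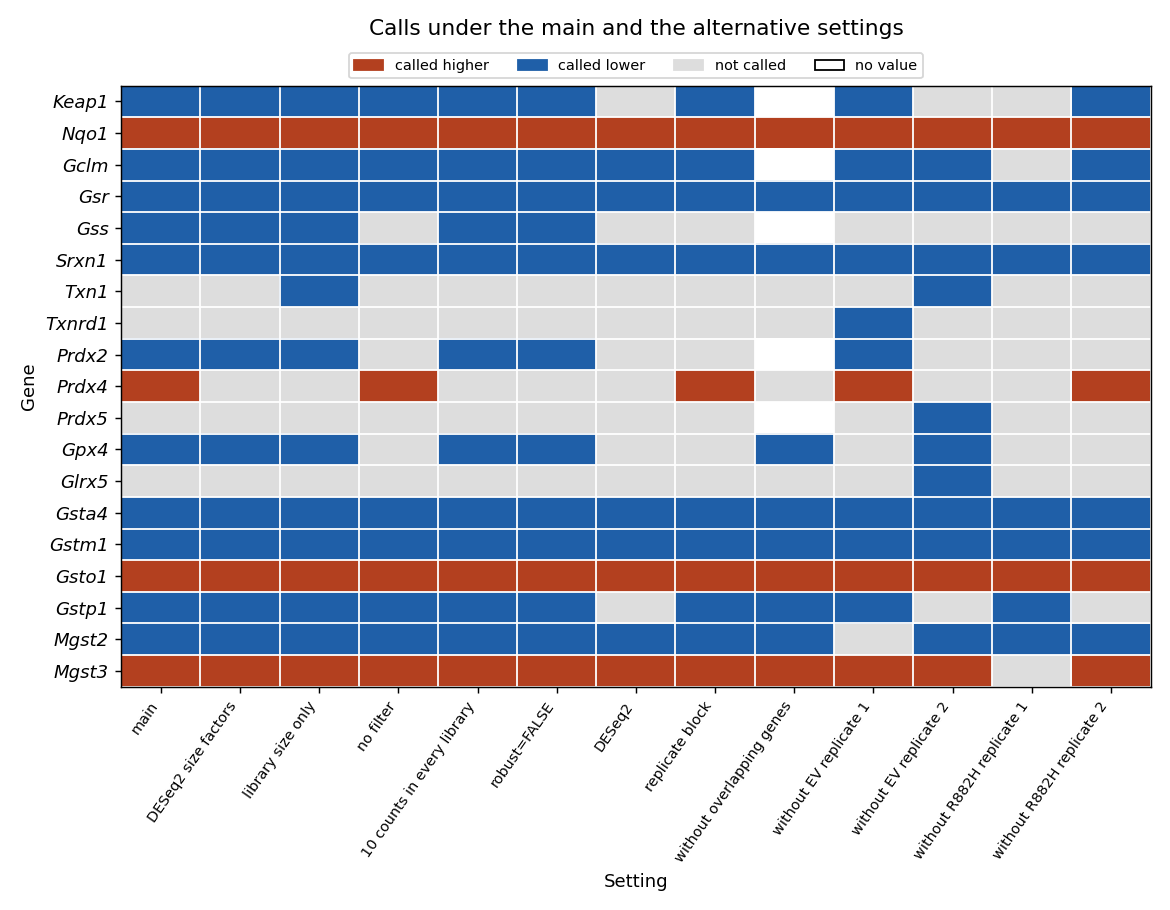
Calls of the 15 called genes and of the 4 that gained a call, by gene (vertical) and setting (horizontal, main setting first). Orange-red cells were called higher, blue cells lower, grey cells were not called and white cells have no value because the gene's exons overlap another gene; Nqo1, Gsr, Srxn1, Gsta4, Gstm1 and Gsto1 keep 1 colour across all settings.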

How the data were processed

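RNA of 4 Hoxb8 libraries was read with the QuantSeq 3′ protocol, per the labels. The authors deposited raw counts per Ensembl gene, 1 column per library, and each column was tied to its library by the column name in the labels. The submitters' processing notes name bcl2fastq 2.17.1.14, cutadapt 1.14, HISAT2 2.0.4, featureCounts, Subread 2.0.0, edgeR 3.34.0, limma 3.48.3 and mm10; the sources used here do not give the annotation, the strand setting or the handling of reads with several matches. Symbols and 1-based positions come from GENCODE M21, on the mm10 assembly, which matched 52489 of 52636 IDs. Exon overlap means overlap, on either strand, with another gene of at least 10 counts.

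Counts were tested with edgeR 4.0.16 in R 4.3.3 over the whole table: low genes dropped by filterByExpr, scaling by TMM, a robust glmQLFit, glmQLFTest, and Benjamini-Hochberg adjustment over 11444 genes. Each SE was taken from the F statistic as the size of the log2 difference divided by the root of F. Ratios of low counts carry exact 95% conditional intervals, which cover counting error only. Alternatives were DESeq2 1.42.0, other scalings and filters, each library left out, the replicate block and removal of overlapping genes. The 39 genes and all lists were chosen with earlier results of these data known. All 39 are named; of each further list the called genes with the smallest p, up to 4, and up to 2 called the other way; of markers the 3 with the most counts. Of the further thiol redox proteins all called genes are named, and genes beyond the rule were chosen after their values were seen.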

Additional observations from a re-analysis of the deposited data

How the results depend on the processing

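DESeq2 called 1401 genes higher (2213 in edgeR) and 1517 lower (2222), and of the 36 genes 3 higher and 6 lower, against 4 and 11. Without the 9 genes whose exons overlap another gene, 3 of the remaining 27 rose and 7 fell. Among all 7943 genes tested in that setting, 1560 rose and 1577 fell. The median log2 difference of the 27 genes was −0.12, against −0.20. With 1 library left out, which assumes that the lone library varies like the other group, the ranges were 1508 to 2065 genes higher and 1446 to 2168 lower among all tested, 2 to 4 and 6 to 10 of the list, and a median of −0.22 to −0.12; the lowest counts, and the smallest median, came without R882H replicate 1. The other scalings and filters moved these counts by less than 1.5 times. Signs turned, without a call, for 6 genes of the list and 3 others. With 1 library left out they ranged as follows: Gclc (−0.0090 to 0.12, with −0.0090 without EV replicate 2), Txn2 (−0.22 to 0.084, with 0.084 without R882H replicate 1), Prdx1 (−0.12 to 0.10, with 0.019 without EV replicate 1 and 0.10 without R882H replicate 1), Sod1 (−0.19 to 0.056, with 0.056 without EV replicate 1 and 0.033 without R882H replicate 1), Glrx2 (−0.13 to 0.44, with −0.13 without EV replicate 2), Glrx3 (−0.13 to 0.044, with 0.044 without EV replicate 1 and 0.0020 without R882H replicate 1), Bach1 (−0.33 to 0.031, with 0.031 without EV replicate 2), Secisbp2 (−0.045 to 0.28, with −0.045 without EV replicate 1 and −0.020 without R882H replicate 1) and Pstk (−0.049 to 0.092, with −0.049 without EV replicate 2 and −0.020 without R882H replicate 2). The cause was not tested. Libraries of equal replicate number shared no deviation from their group means (correlation of deviations −0.003). This value cannot tell whether the libraries were paired in the experiment. With the replicate block 4 genes of the list rose and 8 fell, and 2196 and 2229 genes among all tested. Genes with under 10 counts in some libraries, such as Nqo1, Gstp1, Gstm5, Mgst1 and Mgst3, are limited by depth.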
